A study of Mus musculus with 15 samples.

Results

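Fam163a, Mab21l2, Btbd17 and Ap3b2 were followed across enteric neural crest-derived cells (ENCDC) of 2 mouse models. These 4 of the 17090 genes in the deposited table were chosen from its values, because their counts were near 0 in E11.5 stomach ENCDC that expressed RarαDN and were well above 0 in E13.5 colon ENCDC that expressed it. Their own differences between groups are therefore given as a description with no test. At E11.5 the 4 control libraries came from Wnt1Cre; ROSA26TdTomato embryos, and the 4 RarαDN libraries came from embryos that also carried the RarαDNLoxP/+ allele. At E13.5 the 4 control libraries came from RETCreERT2-EYFPTandem embryos, and the 3 RarαDN libraries came from embryos of that genotype with RarαDNLoxP/+. Tamoxifen had been given at E10.5 to both E13.5 groups and, as far as the sources used here say, to neither E11.5 group. Each library was RNA of fluorescent cells sorted from the stomach or colon of 1 embryo. The labels call the strain background mixed, while the study's methods place the RarαDN, Wnt1Cre and TdTomato lines on C57BL/6J. Wnt1Cre acts in the CNS and in many neural crest derivatives besides the enteric nervous system (ENS), and RETCreERT2 marks only cells in which Ret was active when tamoxifen was present. Age, organ, Cre driver, fluorescent protein and tamoxifen all differ between the models and cannot be told apart. Controls had a Cre driver and a reporter but not the RarαDN allele, so the allele was not examined apart from Cre.

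ENCDC are the migrating precursors that form the neurons and glia of the bowel. They express the receptor tyrosine kinase Ret, the transcription factor Sox10 and the endothelin receptor Ednrb. Retinoic acid acts on gene expression through RAR proteins, which bind as heterodimers with RXR to pairs of a short hexamer in DNA, and RarαDN is a dominant-negative RARα that blocks this response in the cells that make it. Ap3b2 encodes the neuronal β3B subunit of AP-3, an adaptor complex that sorts membrane proteins into synaptic vesicles and lysosome-related organelles. Mab21l2 belongs to the Mab-21-like family and is needed in mouse embryos for eye and body wall development. Fam163a encodes a small protein described in human neuroblastoma. Btbd17 encodes a protein with a BTB domain whose role is little known.

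The 250 bases before the annotated start of each of the 4 genes are shown because RAR acts at such DNA, and the hexamers of its response elements could be searched there. The sequences are from RefSeq (GRCm38.p6), all 4 genes matched, all 4 lie on the minus strand, and each is written 5′ to 3′ on the strand of its gene. Capitals mark the matches to an RAR half-site on either strand, which was searched as AGGTCA and with other bases as GGGTCA, as AGTTCA and as GGTTCA, or to an E-box, the site of bHLH factors, searched as CAGCTG and also as CATCTG. Other E-box words were not searched or marked.
Fam163a, chr1:156205027-156205276: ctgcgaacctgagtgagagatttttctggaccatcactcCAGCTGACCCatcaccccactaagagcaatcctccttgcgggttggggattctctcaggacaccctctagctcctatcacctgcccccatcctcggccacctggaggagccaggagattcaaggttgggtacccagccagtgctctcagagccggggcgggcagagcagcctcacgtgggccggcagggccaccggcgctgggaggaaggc
Mab21l2, chr3:86548284-86548533: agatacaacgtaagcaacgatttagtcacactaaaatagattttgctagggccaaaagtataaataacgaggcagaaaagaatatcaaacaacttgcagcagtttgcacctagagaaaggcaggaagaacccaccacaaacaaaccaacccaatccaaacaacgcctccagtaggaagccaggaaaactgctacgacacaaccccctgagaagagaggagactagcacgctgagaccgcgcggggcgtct
Btbd17, chr11:114795893-114796142: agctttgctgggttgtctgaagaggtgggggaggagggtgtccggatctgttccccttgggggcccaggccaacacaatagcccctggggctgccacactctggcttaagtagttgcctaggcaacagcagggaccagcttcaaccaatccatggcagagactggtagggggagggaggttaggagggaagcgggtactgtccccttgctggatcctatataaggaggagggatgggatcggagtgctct
Ap3b2, chr7:81493926-81494175: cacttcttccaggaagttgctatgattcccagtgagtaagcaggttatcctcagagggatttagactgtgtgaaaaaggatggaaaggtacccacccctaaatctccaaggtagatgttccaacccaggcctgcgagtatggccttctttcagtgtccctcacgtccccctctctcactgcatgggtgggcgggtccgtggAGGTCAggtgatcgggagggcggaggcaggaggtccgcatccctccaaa

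The promoter windows held few of these hexamers. Ap3b2 had AGGTCA once, 49 bases before the start, a hexamer found in 14.02% of the 32851 promoter windows of the same length. Fam163a had GGGTCA once on the opposite strand, 207 bases before the start and held by 11.6% of windows, and it overlapped the E-box CAGCTG, held by 13.001% of windows. Mab21l2 and Btbd17 had none of the searched half-site or E-box words in these 250 bases. No window of the 4 held 2 half-sites on 1 strand with a spacing of 1, 2 or 5 bases, an arrangement present in 0.164%, 0.174% and 0.0883% of all windows. The TATA-box word TATAAA, not in capitals, matched once, 192 bases before the start of Mab21l2 (12.4% of windows). Only this exact word was searched, and the Btbd17 window holds the similar word tatataag close to the annotated start. The word GGACAG, part of the site of the neuronal gene repressor REST, matched once, 53 bases before the start of Btbd17 (18.7% of windows). GC content was 62.8% for Fam163a, 58.8% for Btbd17, 55.2% for Ap3b2 and 46.8% for Mab21l2, beside a median of 52.4% over all windows. The start sites used in these cells were not measured, and these matches are words in a sequence and not binding data.

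Fam163a was the most abundant of the 4 genes in E11.5 control stomach. Its counts were 769, 387, 850 and 999 in control libraries 1 to 4 and 0 in each of the 4 RarαDN libraries. At E13.5 it had 329, 245, 205 and 256 counts in control colon and 276, 455 and 455 in RarαDN colon. In CPM, the counts of a gene relative to the TMM-scaled total of its library and scaled over all 15 libraries, the means were 71.7 ± 22.97 (SD, n = 4) in E11.5 control, 0 in E11.5 RarαDN, 34.3 ± 4.31 (n = 4) in E13.5 control and 48.0 ± 4.74 (n = 3) in E13.5 RarαDN. Taking 3 counts over the 4 E11.5 RarαDN libraries as the limit that a count of 0 allows (0.0748 CPM), Fam163a was at least 958-fold lower in E11.5 RarαDN stomach than in control. All 4 genes had every E11.5 RarαDN library below every control library, as did 9.13% of the 12427 genes tested at E11.5 (15.7% in either direction), a count that the choice of the genes fixes. At E13.5 the order was the opposite, since the RarαDN libraries, at 44.8 to 53.5 CPM, all lay above the control libraries, at 29.6 to 39.7 CPM. Such non-overlap in either direction was shown by 27.5% of the 12085 genes tested at E13.5, and the log2 fold change of Fam163a was 0.51 (SE 0.24).

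Mab21l2 was the member that rose most with age and organ in the control cells. Its counts were 239, 291, 168 and 257 in E11.5 control stomach and 0, 2, 0 and 0 in RarαDN stomach. In E13.5 colon they were 784, 424, 525 and 674 in control and 420, 709 and 647 in RarαDN. The mean level was 23.1 ± 5.74 CPM (SD, n = 4) in E11.5 control and 0.0384 CPM in E11.5 RarαDN, where both counts came from library 2. The ratio of the control mean to the pooled RarαDN level (2 counts over the summed library sizes, 0.0499 CPM) was 463, with a 95% Poisson interval of 128 to 3826 for counting error in the RarαDN libraries alone. Without RarαDN library 2 no count was left, and the fold was then at least 209. In colon the control mean was 78.6 ± 7.97 CPM (n = 4) and the RarαDN mean 72.3 ± 10.1 CPM (n = 3). The 2 colon groups overlapped and the log2 fold change was -0.10 (SE 0.19). Control colon thus held 3.40 times the CPM of control stomach, with no overlap of their libraries. How many of all genes did so between these control groups was not counted.

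Btbd17 was read in every library except those of E11.5 RarαDN. Control stomach libraries had 212, 260, 151 and 210 counts, and all 4 RarαDN stomach libraries had 0. Control colon libraries had 403, 286, 233 and 160 counts and RarαDN colon libraries 115, 237 and 332. Mean levels were 20.2 ± 5.29 CPM (SD, n = 4) in E11.5 control, 35.9 ± 11.7 CPM in E13.5 control (n = 4) and 26.5 ± 6.88 CPM in E13.5 RarαDN (n = 3). The level in E11.5 RarαDN stomach was at least 270-fold lower than in control, against the same limit of 3 counts over the group. In colon the groups overlapped (20.3 to 46.3 CPM in control and 19.1 to 32.7 CPM in RarαDN), with a log2 fold change of -0.40 (SE 0.35). RefSeq places Kif19a and Gpr142 across the ends of Btbd17, and since no step that the sources name kept strand, reads of overlapping genes cannot be told apart.

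Ap3b2 was the least abundant of the 4 genes by CPM in both controls. It had 120, 132, 98 and 184 counts in control stomach and 0, 1, 0 and 0 in RarαDN stomach. In colon it had 165, 77, 148 and 207 counts in control and 125, 171 and 196 in RarαDN. Its level was 12.8 ± 2.66 CPM (SD, n = 4) in E11.5 control and 0.0192 CPM in E11.5 RarαDN. The ratio of the control mean to the pooled RarαDN level, 0.0249 CPM from this single count, was 512, with a 95% Poisson interval of 91.9 to 20230. Without RarαDN library 2, which held the count, the fold was at least 115. Control colon held 19.5 ± 5.84 CPM (n = 4) and RarαDN colon 20.1 ± 0.744 CPM (n = 3), with a log2 fold change of 0.07 (SE 0.37). The 3 RarαDN colon libraries, at 19.3 to 20.8 CPM, all fell inside the control range of 12.5 to 26.3 CPM.

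**Figure D1:**
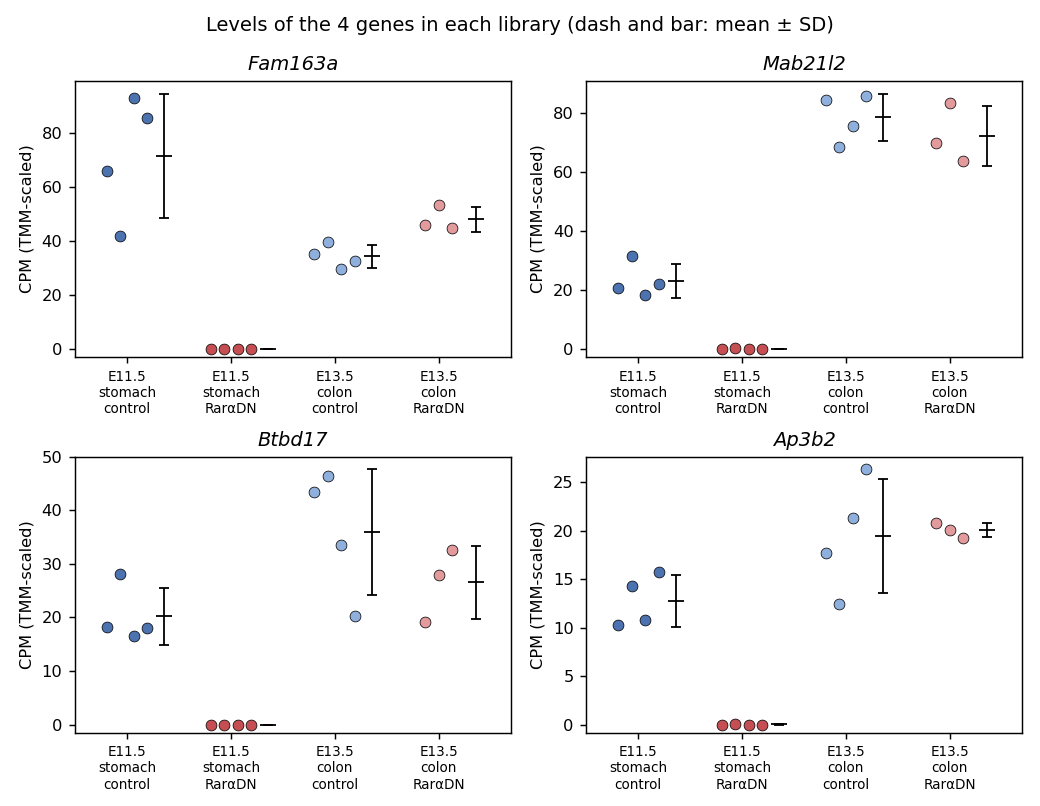
Level of each of the 4 genes in CPM (TMM-scaled, vertical axis) in every library of the 4 groups (horizontal axis). Points are libraries, and the dash with its bar is the group mean ± SD. The E11.5 RarαDN libraries lie at or near 0 for all 4 genes, with no more than 2 counts, while every other library had at least 77 counts. In E13.5 colon the RarαDN points overlap the control points for Mab21l2, Btbd17 and Ap3b2 and lie above them for Fam163a.

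The 4 genes did not move alike among the libraries that expressed them. In E11.5 control library 2, Fam163a was at its lowest (41.8 CPM, others 66.2 to 93.3), whereas Mab21l2 (31.4 CPM, others 18.4 to 22.02) and Btbd17 (28.1 CPM, others 16.6 to 18.2) were at their highest. Ap3b2 was neither in that library (14.3 CPM, others 10.3 to 15.8). The same library had the highest summed level of neuron markers among the E11.5 controls, at 3183 CPM beside 1266 to 1675 CPM in the others, and the part of this in the 4 genes' levels was not tested. From control stomach to control colon, Fam163a was lower (0.478 times) and Mab21l2 higher (3.40 times), both with no overlap of libraries. The share of all genes that separated these control groups was not counted, so this may be common. Btbd17 (1.78 times) and Ap3b2 (1.52 times) had overlapping libraries between these 2 groups. Over all 15 libraries the Pearson correlations of log2-CPM between pairs of the 4 genes were 0.945 to 0.990, which the near-0 libraries used to choose them set. Over the 11 libraries without E11.5 RarαDN, Fam163a was negatively correlated with each of the other three, at -0.83 with Mab21l2, -0.67 with Btbd17 and -0.63 with Ap3b2. Mab21l2 correlated at 0.78 with Ap3b2 and at 0.63 with Btbd17, and Btbd17 with Ap3b2 at 0.15. These 11 points share 3 groups of age, organ and genotype, so they describe these libraries only.

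Per kilobase of transcript, which allows levels of different genes to be set side by side, Fam163a led in control stomach and Mab21l2 in control colon. In E11.5 control the levels in CPM per kb were 18.5 ± 5.92 for Fam163a, 11.8 ± 3.08 for Btbd17, 8.55 ± 2.12 for Mab21l2 and 3.36 ± 0.699 for Ap3b2 (SD, n = 4). Neighbours in that order overlapped for the first 3, and Ap3b2 lay below all of them. In E13.5 control they were 29.1 ± 2.95 for Mab21l2, 20.9 ± 6.82 for Btbd17, 8.84 ± 1.11 for Fam163a and 5.12 ± 1.54 for Ap3b2 (SD, n = 4). Mab21l2 overlapped Btbd17 in that order, and no other neighbours overlapped. In E13.5 RarαDN the order was the same, with 26.7 ± 3.72, 15.5 ± 4.004, 12.4 ± 1.22 and 5.27 ± 0.195 CPM per kb (SD, n = 3). Btbd17 (11.1 to 19.03) and Fam163a (11.5 to 13.8) overlapped there, and no other neighbours did.

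The values that chose the 4 genes were not theirs alone. In E11.5 RarαDN libraries 2715 of the 17090 genes had 2 counts or fewer in every library, which is as low as the 4 genes were. Of these, 18 had at least 77 counts, the lowest count of the 4 genes elsewhere, in every E11.5 control library. In 11 of the 18 every E13.5 RarαDN library also had 77 counts or more, and in 8 all 11 other libraries did. Those 8 were the 4 genes followed here with Chrna3, Rgs4, Stmn3 and Prph. Just outside the 4, Rgs4 and Stmn3 had 3 counts over the 4 E11.5 RarαDN libraries, Chrna3 had 4 and Prph had 5. Just outside on the other side, Grik3 had no E11.5 RarαDN count but only 51 counts in its lowest other library. Th, which encodes tyrosine hydroxylase of the catecholamine pathway, also fell to 0 counts from 55.7 CPM in control stomach, yet it reached only 1.89 CPM in RarαDN colon and 5.17 CPM in control colon. Chrna3, Rgs4, Stmn3, Prph, Grik3 and Th were named here after their values had been seen.

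Likeness was measured as the Pearson correlation of log2-CPM with the mean standardised profile of the 4 genes over the 15 libraries. The 10 genes with the highest values were Chrna3 (0.994), Elavl4 (0.984), Grik3 (0.984), Syt9 (0.983), Chrnb1 (0.980), Nrsn1 (0.978), Rgs4 (0.978), Elavl3 (0.974), 2610028E06Rik (0.972) and Ptpro (0.970). Chrna3 encodes the α3 nicotinic acetylcholine receptor subunit of autonomic ganglia, Grik3 a kainate receptor subunit, Syt9 a synaptotagmin of the exocytic machinery, and Elavl3 and Elavl4 the neuronal RNA-binding proteins HuC and HuD. Taken singly, Fam163a was most like Syt9 (0.986), Mab21l2 most like Prph (0.987), which encodes the peripheral neuron filament peripherin, and both Btbd17 (0.990) and Ap3b2 (0.987) most like Chrna3. All of these correlations rest on the same 4 near-0 libraries and were computed with earlier results of these libraries known.

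Not all of these genes reached 0. Grik3, Syt9, Chrnb1 and Nrsn1 had 0 counts in all 4 E11.5 RarαDN libraries, from mean control levels of 11.5, 10.04, 5.46 and 13.7 CPM, and were at least 154-fold, 134-fold, 72.9-fold and 183-fold lower. Chrna3 had 136.7 CPM in control stomach and 4 counts over the RarαDN stomach libraries, a ratio of 1370 (95% Poisson interval 535 to 5029). Elavl4 behaved otherwise, since it kept 39.4 CPM in E11.5 RarαDN beside 302.4 CPM in control. In colon, Chrna3 had 152.6 CPM in control and 193.7 CPM in RarαDN, and Elavl4 had 373.3 and 358.1 CPM. Ptpro, a receptor tyrosine phosphatase, was the member of this group with the lowest E13.5 log2 fold change, at -1.01, with 43.0 CPM in control and 20.96 CPM in RarαDN colon.

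**Figure D2:**
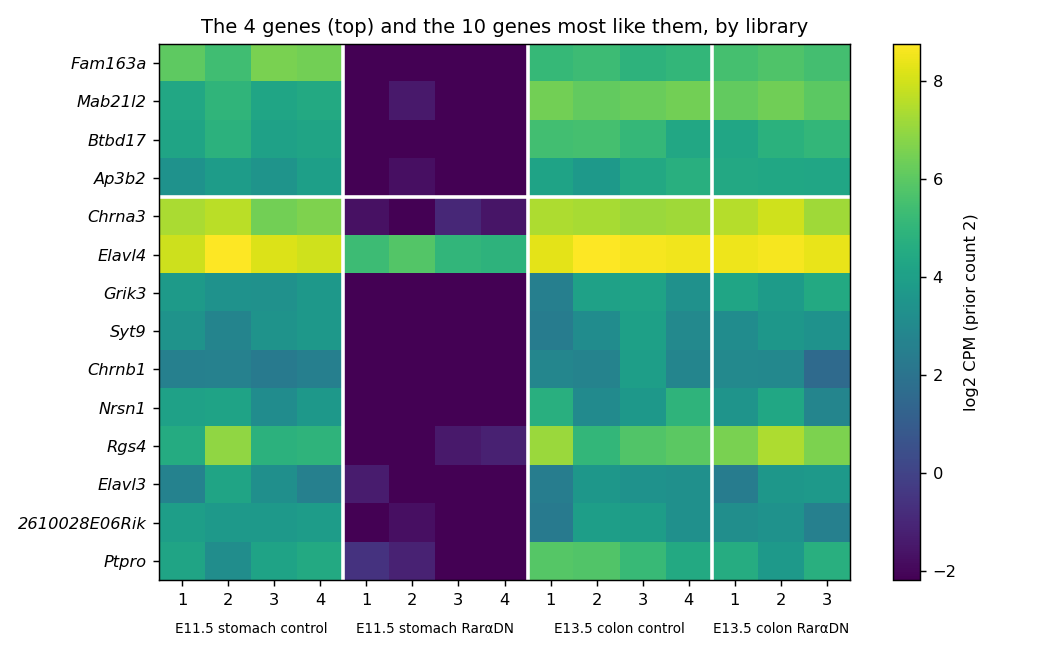
Heat map of log2 CPM (colour, prior count 2) of the 4 genes, above the white line, and of the 10 genes most like them, below it, in each of the 15 libraries (columns, with replicate numbers under each group). The darkest cells are libraries with no count. The E11.5 RarαDN columns are dark for every gene except Elavl4, which kept 39.4 CPM there.

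The relatives of Mab21l2, Fam163a and Btbd17, which played no part in the choice of the 4 genes, were tested by quasi-likelihood F-tests in edgeR. The p-values were adjusted over all genes by the Benjamini-Hochberg method. At E11.5 6% of 12427 genes passed (2.93% lower and 3.07% higher in RarαDN), and at E13.5 8.33% of 12085 (5.55% lower and 2.78% higher). Of the 5 relatives listed, Mab21l4 is not in the table, Lgals3bp was too low to be tested (at most 10 counts in any library), and of the 3 tested 1 passed at E11.5 and none at E13.5. That one was Mab21l1, the closest paralog of Mab21l2 and a gene needed in mice for lens development. Mab21l1 had 2725, 2113, 1615 and 2307 counts in control stomach and 993, 1289, 397 and 319 in RarαDN stomach. Its level was 209 ± 26.8 CPM in control and 70.1 ± 28.6 CPM in RarαDN (SD, n = 4 each), and the groups did not overlap. The log2 fold change was -1.58 (SE 0.30, edgeR adjusted p = 0.0112). Unlike Mab21l2, every E11.5 RarαDN library thus still held Mab21l1, at 36.1 to 99.0 CPM. In colon Mab21l1 had 70.1 to 158 CPM in control (mean 100.8, n = 4) and 146 ± 17.96 CPM in RarαDN (n = 3), and the groups overlapped, with a log2 fold change of 0.56 (SE 0.27, edgeR adjusted p = 0.251). The difference between its 2 log2 fold changes was -2.10 (SE 0.42, edgeR adjusted p = 0.00391 in a fit of all 15 libraries), where 14.5% of 13412 genes passed (7.34% lower and 7.2% higher at E11.5 than at E13.5) and the median over all genes was -0.12. Without E13.5 control library 1 the colon value of Mab21l1 passed, at 0.87 on the log2 scale (edgeR adjusted p = 0.0262).

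As a share of the summed CPM per kb of Mab21l1 and Mab21l2, Mab21l2 held 9.20% ± 1.57 in E11.5 control and 0.0357% ± 0.0714 in E11.5 RarαDN (SD, n = 4 each). In colon the share was 43.1% ± 7.18 in control (n = 4) and 31.2% ± 0.642 in RarαDN (n = 3). Fam163b, the paralog of Fam163a, was low and uneven. It had 105, 122, 72 and 77 counts in control stomach and 0, 0, 31 and 0 in RarαDN stomach, at -3.08 on the log2 scale (SE 1.51, edgeR adjusted p = 0.295). Without RarαDN library 3, which held all 31 counts, it passed at -9.61 (edgeR adjusted p = 0.00494). Its fitted value then depends on the prior count, since the other 3 libraries were at 0. In colon Fam163b ranged from 0 to 92 counts in control and from 7 to 96 in RarαDN. Mab21l3 had log2 fold changes of -0.83 (SE 1.24) at E11.5 and -0.80 (SE 1.29) at E13.5 and did not pass at either age.

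The other subunit genes of AP-3 were all read in E11.5 RarαDN stomach, where Ap3b2 was near 0, and none of them passed the test. The complex has a δ subunit (Ap3d1), a β3 subunit (Ap3b1 in most cells and Ap3b2 in neurons), a μ3 subunit (Ap3m1, or Ap3m2 in neurons) and a σ3 subunit (Ap3s1 or Ap3s2). Of these 6 other subunit genes, 0 passed the edgeR test at E11.5, 0 at E13.5 and 0 in the difference between the ages, while 0, 2 and 1 had an unadjusted p under 0.05. At E11.5 their log2 fold changes ran from -0.31 (Ap3m1, SE 0.28) to 0.19 (Ap3s1, SE 0.34), with a median of 0.04 beside -0.05 over all genes tested. Their lowest unadjusted p there was 0.290, and DESeq2 also called 0. At E13.5 they ran from -0.56 (Ap3s1, SE 0.16, edgeR adjusted p = 0.0657) to 0.61 (Ap3b1, SE 0.36), and DESeq2 called Ap3s1 lower there (-0.59, DESeq2 adjusted p = 0.0143). Ap3b1, the ubiquitous counterpart of Ap3b2, had 887, 471, 871 and 1065 counts in control stomach and 775, 1375, 431 and 552 in RarαDN stomach. The groups of Ap3b1 overlapped, with 78.5 ± 20.2 CPM in control and 74.7 ± 20.8 CPM in RarαDN (SD, n = 4 each). Ap3m2, the neuronal μ3 gene, had 32.7 ± 3.69 CPM in E11.5 control and 36.3 ± 8.75 CPM in E11.5 RarαDN (n = 4 each), unlike Ap3b2. Since Ap3b2 was chosen for its near-0 counts there, this contrast between the 2 neuronal subunit genes is only a description.

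Within the pair of β3 genes, Ap3b2 made up 15.4% ± 5.37 of their summed CPM per kb in E11.5 control and 0.0192% ± 0.0384 in E11.5 RarαDN (SD, n = 4 each). In colon it made up 37.99% ± 13.3 in control (n = 4, range 23.5% to 55.7%) and 27.96% ± 1.43 in RarαDN (n = 3). For the μ3 pair, Ap3m2 made up 41.2% ± 4.16 in E11.5 control and 49.6% ± 12.8 in E11.5 RarαDN (n = 4 each).

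**Figure D3:**
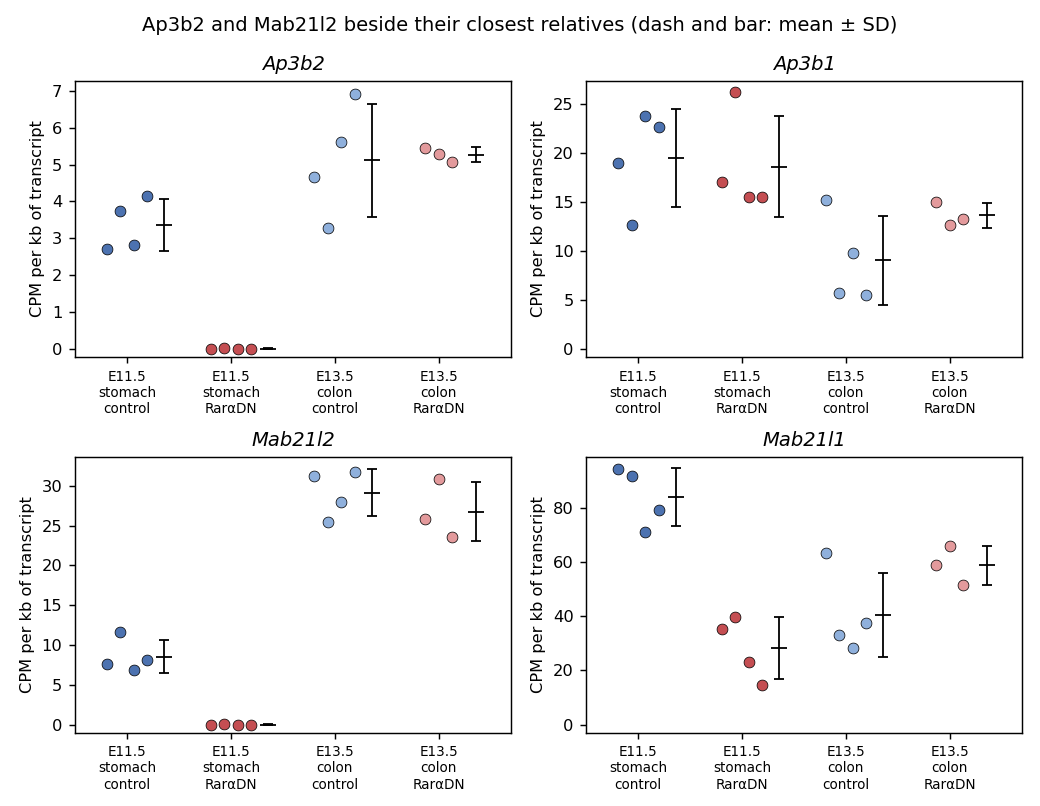
Ap3b2 and Mab21l2 (left) beside their closest relatives Ap3b1 and Mab21l1 (right), in CPM per kb of transcript (vertical axes) in every library of the 4 groups. Points are libraries, and the dash with its bar is the group mean ± SD. In E11.5 RarαDN stomach Ap3b1 overlaps its control and Mab21l1 lies below its control but above 0, while Ap3b2 and Mab21l2 are at or near 0.

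The related adaptor complexes and the partners of AP-3 were also examined. Of the 15 tested genes of AP-1, AP-2 and AP-4, adaptors that sort cargo at the trans-Golgi network, endosomes and plasma membrane, 0 passed at E11.5 by edgeR or DESeq2, and 2 had an unadjusted p under 0.05. The lowest adjusted p belonged to Ap1g2 (log2 fold change 1.09, SE 0.40, edgeR adjusted p = 0.157), Ap1g1 (-0.69, SE 0.31, 0.251) and Ap2s1 (0.58, SE 0.27, 0.262). At E13.5 Ap2s1, the σ2 subunit of the endocytic adaptor, was lower in RarαDN (log2 fold change -0.85, SE 0.15, edgeR adjusted p = 0.0115), a call that was lost without any 1 of the 3 RarαDN libraries (edgeR adjusted p = 0.0537 to 0.0779). Among 10 tested partners and cargo of AP-3, 0 passed by edgeR at E11.5 and 3 had an unadjusted p under 0.05. The lowest adjusted p were those of Dtnbp1 (0.83, SE 0.23, edgeR adjusted p = 0.0627), Vps41 (-0.66, SE 0.25, 0.174) and Clcn3 (-0.82, SE 0.37, 0.247). Dtnbp1, which encodes the BLOC-1 subunit dysbindin, was called higher by DESeq2 (0.86, DESeq2 adjusted p = 0.0102). At E13.5 the BLOC-1 subunit genes Bloc1s1 (-1.47, SE 0.23, edgeR adjusted p = 0.00874) and Bloc1s2 (-0.69, SE 0.18, edgeR adjusted p = 0.0423) fell, and Pi4k2a, a lipid kinase carried by AP-3, rose (1.17, SE 0.24, edgeR adjusted p = 0.0175). The Bloc1s2 and Pi4k2a calls were lost without any 1 of the 3 RarαDN libraries, without control library 3 and with the replicate number as a block. That of Bloc1s2 was also lost without control library 1 or 2, with all 4 groups in 1 fit and with no filter on low counts (edgeR adjusted p = 0.0541 to 0.153 over all of its lost calls). That of Bloc1s1 was lost without RarαDN library 1 (edgeR adjusted p = 0.0594) or 2 (edgeR adjusted p = 0.0519).

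**Figure D4:**
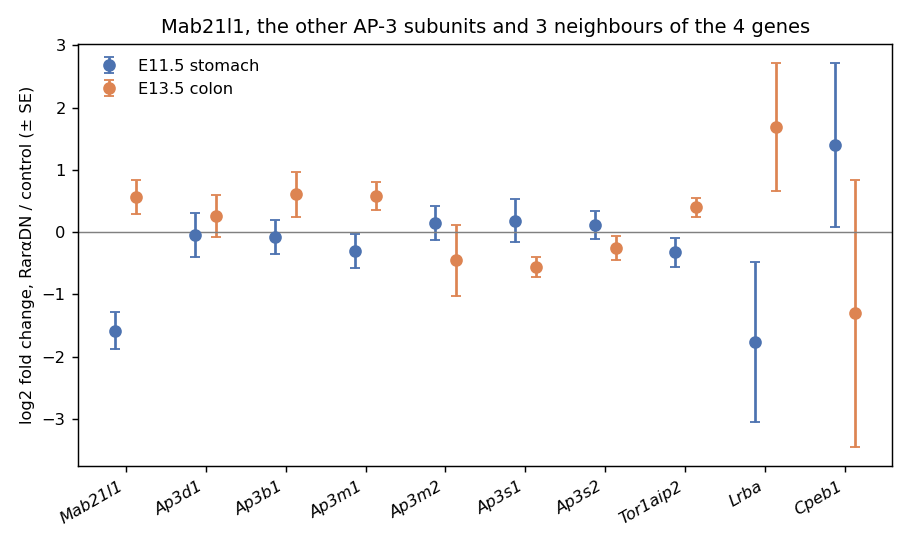
log2 fold change of RarαDN over control (vertical axis) at E11.5 in stomach and at E13.5 in colon, ± SE derived from the edgeR F statistic. Shown are Mab21l1, the 6 other AP-3 subunit genes and the 3 genomic neighbours of the 4 genes that were tested at both ages. Of these 10 genes 1, Mab21l1 at E11.5 (-1.58), passed the test, and the other values stand on both sides of 0.

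The genes next to the 4 on the chromosome, by RefSeq order in GRCm38.p6, were read for shared change. Fam163a lies between Tor1aip2 and Tdrd5, Mab21l2 lies inside Lrba, Btbd17 overlaps Kif19a and Gpr142, and Ap3b2 lies between Cpeb1 and BC048679. None of the 4 neighbours tested at E11.5 or the 3 tested at E13.5 passed, with 0 of 4 at an unadjusted p under 0.05 at E11.5 and 1 of 3, Tor1aip2, at E13.5. Tor1aip2, which encodes a torsin cofactor of the endoplasmic reticulum, had 238 ± 30.9 CPM in control stomach and 191 ± 58.6 CPM in RarαDN stomach (SD, n = 4 each), with a log2 fold change of -0.32 (SE 0.23, edgeR adjusted p = 0.493). Lrba, which encodes a large vesicle protein, had 31, 22, 30 and 62 counts in control stomach and 1, 2, 0 and 34 in RarαDN stomach, with a log2 fold change of -1.76 (SE 1.29, edgeR adjusted p = 0.507). Without RarαDN library 4 Lrba passed, at -5.09 (edgeR adjusted p = 0.0301). Reads of Mab21l2 and Lrba cannot be told apart by strand, though Lrba had no more than 73 counts in any library. Kif19a, the kinesin gene at 1 end of Btbd17, had at most 15 counts in an E11.5 control library and at most 77 in an E11.5 RarαDN library, and Gpr142 had at most 5 counts in any library.

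Transcription factors of autonomic and enteric neurons gave the setting in which the 4 genes were read. Of 15 tested factors 6 fell at E11.5 in RarαDN stomach (Meis1, Ebf1, Hoxb5, Tbx3, Phox2a and Ebf3) and none rose, where 2.93% of all genes fell. The median log2 fold change of the 15 was -1.67, beside -0.05 over all genes tested. Tbx3, a T-box factor, had 182 ± 51.7 CPM in control and 49.3 ± 14.2 CPM in RarαDN stomach (SD, n = 4 each), with a log2 fold change of -1.89 and an SE of 0.29 (edgeR adjusted p = 0.00427). Phox2a, a homeobox factor of noradrenergic and autonomic neurons, had 55, 164, 52 and 108 counts in control and 0, 3, 2 and 1 in RarαDN stomach (edgeR adjusted p = 0.00683), a ratio of 62.5 (95% Poisson interval 28.7 to 170.3). Ebf3, a factor of differentiating neurons, had 18 to 39 counts in control stomach and 0 in all 4 RarαDN libraries, at least 33.4-fold lower (edgeR adjusted p = 0.0175), and this call was lost without any 1 of the 4 control libraries. The count of 6 was 2 without any 1 of the 4 control libraries and 2 with the replicate number as a block. In colon 1 of 12 fell (Phox2a) and 2 rose (Hoxb5 and Sox11). Phox2a thus differed from the 4 genes, with 33.6 ± 10.53 CPM in control and 8.16 ± 1.62 CPM in RarαDN colon (n = 4 and 3, log2 fold change -2.01, SE 0.40, edgeR adjusted p = 0.0162), a call lost without any 1 RarαDN library. Ebf3 in colon was at 12.9 ± 2.73 and 16.5 ± 1.83 CPM (n = 4 and 3, edgeR adjusted p = 0.617). The colon rises of Hoxb5 and Sox11 were both lost without RarαDN library 1, and both again without library 2. When the 4 groups were fitted together, 1 factor rose in colon and none fell, so Phox2a no longer passed there either.

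Marker levels of several cell types also differed between the groups, some lower and some higher in RarαDN, and their part in the levels of the 4 genes was not tested. In bulk RNA, fewer cells of a type and less RNA per cell cannot be told apart. The 5 defining ENCDC markers reported here (Sox10, Ret, Ednrb, Elavl4 and Tubb3) were present in every group, and their summed level was 2175 to 3231 CPM in E11.5 control, 909 to 1244 in E11.5 RarαDN, 1579 to 2097 in E13.5 control and 2208 to 2477 in E13.5 RarαDN. Ret had 0.113 CPM in the lowest E11.5 RarαDN library and 223.9 CPM in the highest, while the 4 genes were at or near 0 in all of them. Of the 5, Ednrb (-0.71, SE 0.15, edgeR adjusted p = 0.0161) and Elavl4 (-2.94, SE 0.29, edgeR adjusted p = 0.000252) fell at E11.5, and Ednrb rose at E13.5 (1.62, SE 0.19, edgeR adjusted p = 0.00472). At E11.5 Ret (-3.66, SE 1.43, edgeR adjusted p = 0.191), Tubb3 (-1.78, SE 0.51, edgeR adjusted p = 0.0679) and Sox10 (0.80, SE 0.44, edgeR adjusted p = 0.355) did not pass. Elavl4 and Tubb3 are also in the neuron list. The Ednrb call at E11.5 was lost without control library 1, 3 or 4 (edgeR adjusted p = 0.0610 to 0.0700) and with the replicate number as a block (edgeR adjusted p = 0.0723). Of 14 neuron markers 8 fell at E11.5, and their sum was 1266 to 3183 CPM in control and 568 to 827 in RarαDN. Over the 4 RarαDN libraries Stmn2, Prph, Stmn3, Elavl3 and Dcx had 6, 5, 3, 2 and 0 counts, where each of the 4 genes had no more than 2. Most of the sum was Gap43 (401.2 CPM on average), Tubb3 (103.2 CPM) and Uchl1 (85.4 CPM). Tubb3, for neuronal β3-tubulin, stood at 24.4 to 176 CPM in these RarαDN libraries. In colon the neuron sum was 4408 to 5219 CPM in control and 2400 to 3678 in RarαDN with no overlap, whereas Fam163a was higher in RarαDN and the other three genes overlapped between the groups. By edgeR 4 of the 14 neuron markers fell in colon (Gap43, Stmn3, Stmn2 and Uchl1), 1 rose (Nefm) and 9 did not pass. Their median log2 fold change there was -0.24, beside 0.06 over all genes tested. Of 7 tested melanoblast markers 7 rose at E11.5, with sums of 19.5 to 31.7 CPM in control and 1174 to 2677 in RarαDN. The leukocyte sum was 41.0 to 64.2 CPM in E11.5 control and 69.4 to 303.9 in E11.5 RarαDN, and that of glia 360 to 991 and 460 to 1217. Mesenchyme markers summed to 141 to 316 and 259 to 586 CPM, endothelial ones to 34.3 to 69.8 and 8.73 to 42.5, and epithelial ones to 37.4 to 90.1 and 13.8 to 34.4. In colon the mesenchyme sum was 160 to 330 CPM in control and 71.3 to 144 in RarαDN with no overlap, and the leukocyte sum 59.3 to 98.6 and 40.8 to 61.0, both lower on average in RarαDN where they were higher at E11.5. The colon sums of glia (147 to 318 and 228 to 499), endothelium (10.2 to 32.4 and 14.3 to 20.3) and epithelium (43.5 to 54.1 and 48.3 to 59.01) overlapped between the groups.

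Library totals were 6065029 to 12121327 counts, with the 4 E11.5 RarαDN libraries at 6428930 to 12121327, and in E11.5 RarαDN library 2 a single count stood for 0.0768 CPM. In E13.5 control, libraries 2 and 3 held 820 and 4070 CPM of erythroid transcripts, beside 20.6 and 54.8 in libraries 1 and 4 and at most 79.8 in RarαDN. Without these 2 libraries the E13.5 log2 fold changes were 0.52 for Fam163a, -0.22 for Mab21l2, -0.24 for Btbd17 and -0.12 for Ap3b2. Since the cDNA was amplified and molecules were not tagged, the limits and intervals given here cover counting error only.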

How the data were processed

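RNA from sorted ENCDC of 15 single embryos was made into cDNA with the SMART method, built into Nextera XT libraries and sequenced single-end, in 2 runs per sample that were combined. The authors removed repeat and ribosomal reads, mapped the rest with RUM and deposited counts per transcript (22365 transcripts, 17090 genes). The sources used here name no genome build. The deposited log2 values (the authors' normalized levels) were not used. The authors' own comparisons, as log2 fold changes and FDR p-values that they deposited, were not used.

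Groups came from the sample labels. The transcript marked best was kept for each gene, and each of the 4 genes has 1. Low genes were removed by filterByExpr, TMM set the scaling, and tests were run in edgeR 4.0.16 (quasi-likelihood, robust, Benjamini-Hochberg, threshold 0.05) in R 4.3.3, with 1 fit per age and 1 interaction fit. No pair of libraries agreed within sampling noise. Each SE was derived as the absolute log2 fold change divided by the square root of the quasi-likelihood F statistic. Correlations used log2-CPM with prior count 2. Steps were tested on simulated data. Named genes were the 4, their relatives, AP-3 subunits, neighbours, the 3 lowest adjusted p of each other related list, the 10 most alike and the defining markers. Genes of the related lists that passed any fit were followed as well. Some listed genes are not reported here and were left out of the lists' counts and sums. The 4 genes, the lists and the tests were chosen with earlier results of these data known. Alternatives were RLE scaling, no filter, DESeq2 1.42.0, a replicate block, all 4 groups in 1 fit, the transcript with the largest total and each library left out. The fit without 2 hemoglobin-rich libraries was added after the data had been seen. Figures used matplotlib 3.10.9.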

Additional observations from a re-analysis of the deposited data

Results flagged for a closer look

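Of 53 groups of 4 libraries examined, 8 held a value far from the other three by Dixon's criterion, which chance meets in about 1 in 20 groups. In 5 of the 8 a single library was above 0, where the criterion is met whatever the value (Mab21l2, Ap3b2, Fam163b, Lgals3bp and Kif19a), and for Mab21l2 and Ap3b2 these are the values that chose the genes. E11.5 RarαDN library 2 held the only reads of Mab21l2 (0.154 CPM) and of Ap3b2 (0.0768 CPM) in its group, and it had the highest Ap3b1 (105.6 CPM). Btbd17 stood apart in E11.5 control library 2 (28.1 CPM). Fam163b stood apart in E11.5 RarαDN library 3 (4.49 CPM), Lrba in E11.5 RarαDN library 4 (3.85 CPM), Kif19a in E13.5 control library 2 (1.78 CPM) and Lgals3bp in E13.5 control library 3 (0.144 CPM).

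The log2 fold change at E11.5 minus that at E13.5 passed the edgeR interaction test for 15 of 37 related genes. Among the 37 was every gene of the related lists that passed any fit, this one included. Their share therefore cannot be set beside the 14.5% of all genes that passed. By list the difference passed for 8 of 15 transcription factors, 2 of 15 genes of the other adaptor complexes and 2 of 10 AP-3 partners. The latter pair of lists was near 14.5%. It was -2.10 for Mab21l1. Among the defining ENCDC markers it was -2.28 for Ednrb and -2.86 for Elavl4. Among the transcription factors it was -1.81 for Sox11, -2.003 for Meis1, -2.28 for Tbx2, -2.43 for Tbx3, -3.76 for Phox2a, -4.03 for Hoxb5, -6.88 for Isl1 and -7.85 for Ebf3, where fitted values of genes at 0 depend on the prior count. Isl1 did not pass at E11.5 alone (log2 fold change -1.40, SE 0.94, edgeR adjusted p = 0.462). At E13.5 alone the filter on low counts removed Isl1, so it was not tested there. Among adaptor and AP-3 partner genes the difference was 0.80 for Ap1s1, 1.24 for Dtnbp1, 1.49 for Ap2s1 and 2.19 for Bloc1s1.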

How the results depend on the processing

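The number of genes called at E11.5 (745) was 1363 with DESeq2, 350 with the replicate block and 324 to 1143 with 1 library left out (324, 351 and 363 without control 1, 3 and 4, and 1143 without RarαDN 1). At E13.5 (1007) it was 1723 with DESeq2, 649 with all 4 groups in 1 fit, 25 to 1258 with 1 library left out (25, 44 and 324 without RarαDN 1, 2 and 3, and 462 without control 3) and 212 without both hemoglobin-rich control libraries, an alternative chosen after seeing the data. For the difference (1950) it was 1196 to 2341 with 1 library left out (1196 and 1259 without E13.5 RarαDN 1 and 2). The cause was not tested. Deviations of same-numbered libraries correlated at -0.171 to 0.195 at E11.5 and 0.020 to 0.043 at E13.5. With so few libraries these values cannot exclude that the replicate numbers pair litters or batches. The block gave 850 calls at E13.5 and 1489 for the difference.

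Of 112 alternative values for the 4 genes 107 moved by less than the spread between libraries. With DESeq2 the fitted E11.5 log2 fold change was -11.86 for Fam163a (main -12.52) and -10.04 for Btbd17 (main -10.69). With 1 library left out it was -8.16 to -10.83 for Mab21l2 (main -8.60) and -8.09 to -9.98 for Ap3b2 (main -8.47). Fitted values of genes at 0 depend on the prior count. At E13.5 the alternatives gave 0.43 to 0.58 for Fam163a, -0.22 to -0.0026 for Mab21l2, -0.61 to -0.21 for Btbd17 and -0.12 to 0.29 for Ap3b2. The bound for Fam163a was 647 to 1091 and for Btbd17 182 to 287 with 1 library left out.

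For 37 other genes, 1597 of 1708 alternative values kept their side of the threshold, 73 no longer passed and 38 newly passed. No value that passed in the main fit reversed direction. For values that did not pass in the main fit, direction was not checked. Mab21l1 passed at E11.5 in every alternative (edgeR or DESeq2 adjusted p = 2.19e-05 to 0.0464). Depth limits what can be said of Gpr142, Tdrd5 and Lgals3bp, with 20 counts or fewer per group.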
